A study of Mus musculus with 27 samples.

Results

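Zhx2 encodes a repressor made of zinc fingers and homeodomains, Afp, Gpc3 and Lpl are genes it is known to hold down in the liver after birth, and Elovl3 is a gene of fatty acid elongation reported to respond to it. The 5 genes were chosen by name, as the rows of the count table whose Ensembl identifier carries one of these symbols in GENCODE M21, and they are 5 of 43346 genes in the table. The rule uses names and no measured value, but the names were chosen with earlier results of these data known. All 5 were found, each as a single row.

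In the fetal liver the hepatocytes make alpha-fetoprotein, the product of Afp, and shut the gene off around birth. Zhx2 was found as the locus behind a persistently raised alpha-fetoprotein in BALB/cJ mice, which carry a Zhx2 allele with little function, and BALB/cJ is not among the strains studied. ZHX proteins bind the A subunit of NF-Y, the factor that recognises the CCAAT box, and several Zhx2 targets also differ between the sexes in adult liver.

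Hepatocytes of female mice aged 12 weeks were the source of the RNA sequenced. The groups were 9 inbred strains with 3 libraries each: A/J, C57BL/6J, NZO/HlLtJ, 129S1/SvImJ, NOD/ShiLtJ, DBA/2J and the wild-derived PWK/PhJ, CAST/EiJ and WSB/EiJ. No treatment and no engineered allele is labelled in any group, and the series set strain differences in expression beside histone marks and DNA methylation, which are not analysed here. The labels call the libraries of a strain biological replicates without saying that each came from a separate mouse, so p-values measure the spread between these samples.

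Library totals ran from 17015956 to 35078511 estimated counts, and 1 count was worth 0.0253 to 0.0516 CPM (the count divided by the library size, after TMM scaling of that size for composition). A count of 0 therefore allows up to 3 counts, or 0.0759 to 0.155 CPM, depending on the library, and this limit covers counting error only. The 10 hepatocyte markers summed to between 29000 and 70100 CPM in every library. Markers of other liver cells were present at far lower sums: 36.3 to 448 CPM for 11 Kupffer cell (liver macrophage) genes, 56.8 to 694 CPM for 10 endothelial genes and 31.6 to 196 CPM for 11 stellate cell genes. Whether reads were aligned to each strain's own genome is not given in the sources used here, and how far this bears on the values of the divergent strains CAST/EiJ and PWK/PhJ, which are extremes for Zhx2, Lpl and Elovl3, was not tested. In such bulk samples, fewer cells of a type and less RNA per cell cannot be told apart.

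On GRCm38, Zhx2 (ENSMUSG00000071757) spans chr15:57694665-57839832 on the plus strand, and Afp (ENSMUSG00000054932) spans chr5:90490737-90508907 on the plus strand. Gpc3 (ENSMUSG00000055653) lies at chrX:52272426-52613950 on the minus strand. The remaining pair are Lpl (ENSMUSG00000015568) at chr8:68880491-68907448 and Elovl3 (ENSMUSG00000038754) at chr19:46131897-46135694, both on the plus strand. The library kit is not described as strand-specific, so reads of antisense neighbours cannot be told apart from those of the gene. Those neighbours were low: Gm16006 opposite Zhx2 held 122 counts over the 27 libraries against 6409 for Zhx2, and Pitx3 opposite Elovl3 held 41 against 7481. The estimated counts of Lpl were not whole in 22 of 27 libraries, and no other gene of GENCODE M21 overlaps it, so what made them fractional was not tested. For the other 4 genes all counts were whole.

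Promoters from RefSeq on GRCm38.p6, 250 bases before to 50 after the annotated start, matched Afp and Gpc3, and are shown because Afp is the gene through which Zhx2 was recognised and Gpc3 is a further fetal gene under it. Capitals mark matches to 2 motifs, each searched on both strands: the CCAAT box of NF-Y and a TATA box. The windows are chr5:90490464-90490763 on the plus strand for Afp and chrX:52613925-52614224 on the minus strand for Gpc3.
Afp: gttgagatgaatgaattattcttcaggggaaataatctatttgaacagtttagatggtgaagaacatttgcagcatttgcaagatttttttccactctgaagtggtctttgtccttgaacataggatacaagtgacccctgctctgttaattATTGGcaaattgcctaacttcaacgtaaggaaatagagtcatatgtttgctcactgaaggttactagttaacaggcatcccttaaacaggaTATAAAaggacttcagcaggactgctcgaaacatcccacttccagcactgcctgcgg
Gpc3: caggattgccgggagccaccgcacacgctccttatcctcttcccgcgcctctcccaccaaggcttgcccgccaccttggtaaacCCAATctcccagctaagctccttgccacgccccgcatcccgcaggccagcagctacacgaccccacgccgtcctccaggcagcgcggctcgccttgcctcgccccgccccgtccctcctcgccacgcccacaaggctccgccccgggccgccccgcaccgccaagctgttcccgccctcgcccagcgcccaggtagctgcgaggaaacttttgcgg
In the Afp window CCAAT stood on the opposite strand (read as ATTGG) at bases 153 to 157 from the 5′ end and the TATA box, searched as TATAAA, at bases 244 to 249, with no overlap. In the Gpc3 window the only match was CCAAT at bases 85 to 89. Over 32851 promoters of the same length, CCAAT was found in 37.4% and TATAAA in 13.6%, so a match is a description of the sequence and not a site of binding. Zhx2, Lpl and Elovl3 were not matched.

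Each of the 5 genes differed among the 9 strains in edgeR's quasi-likelihood test (adjusted p under 0.05 by Benjamini-Hochberg over 14482 genes tested), which was true of 74.2% of all genes tested, so strain variation as such does not set them apart. For Gpc3 a difference was also a condition of being tested, as described with its values. The sizes were very unlike. Zhx2 differed least, from 6.5 to 11.6 CPM between the lowest and highest strain means, Afp from 0.481 to 1.23 CPM and Gpc3 from 0.0254 to 0.663 CPM. Lpl ran from 2.27 to 62.1 CPM and Elovl3 from 1.69 to 21.7 CPM, with A/J at the top of both. The log2 range of the strain means was 0.83 for Zhx2, 1.27 for Afp, 3.67 for Elovl3 and 4.73 for Lpl, beside a median of 1.16 over all genes tested.

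**Figure D1:**
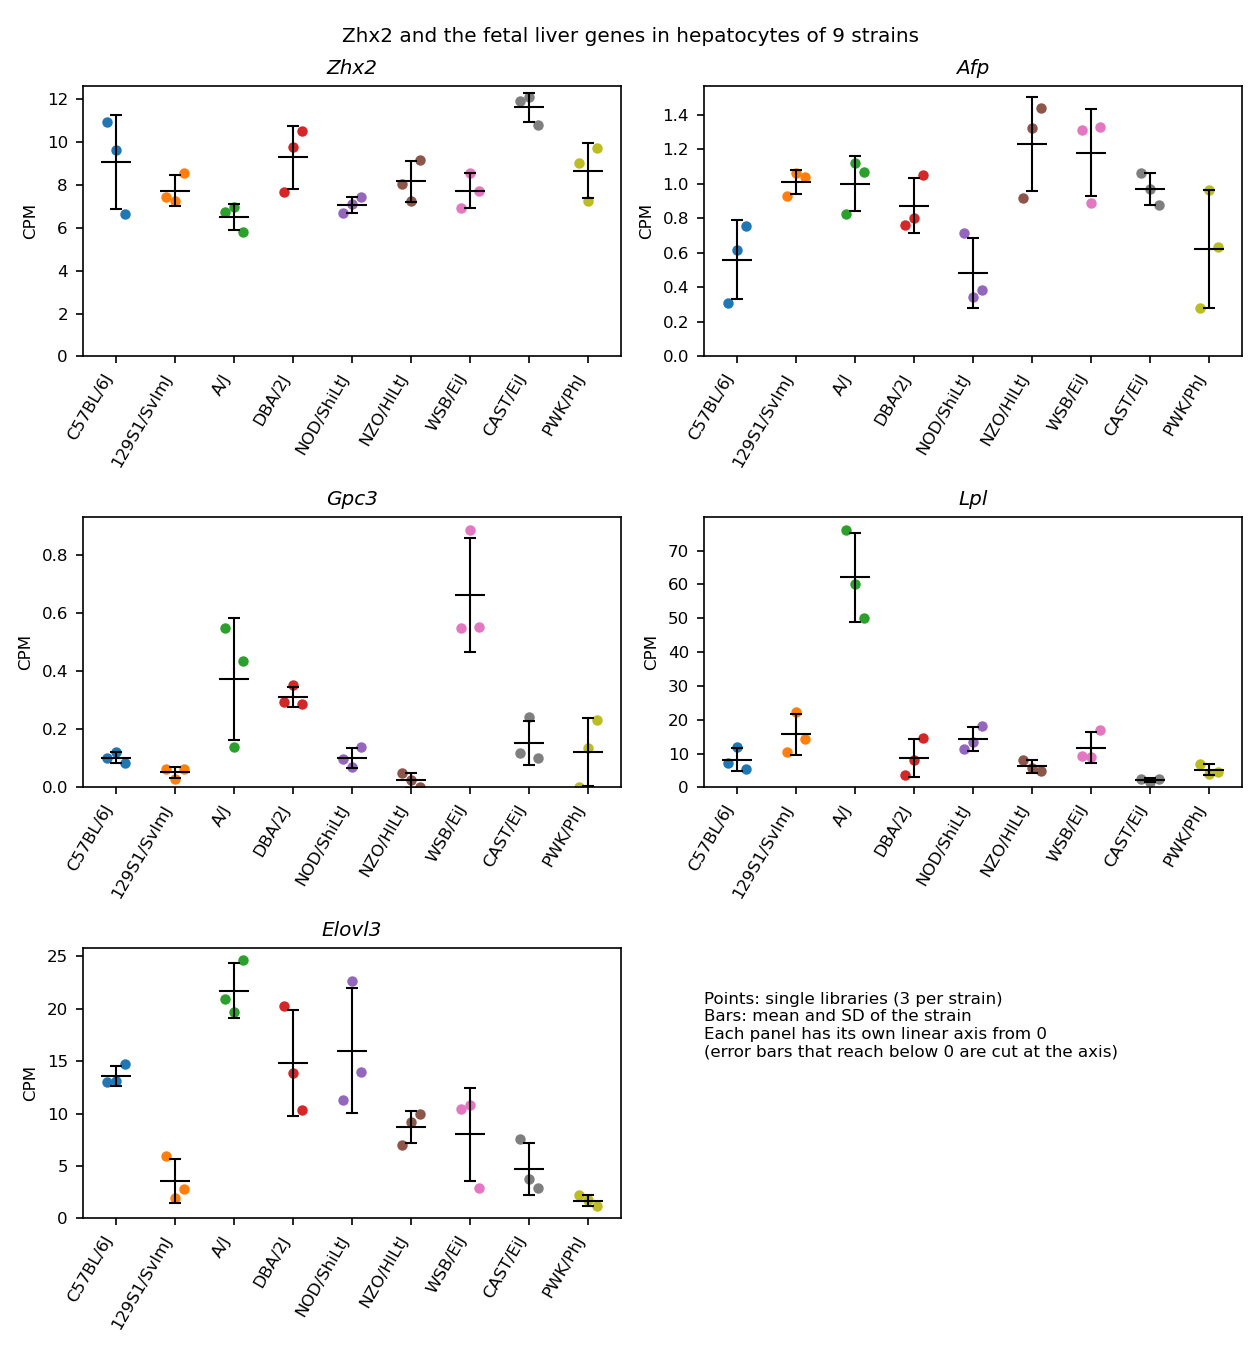
Expression of Zhx2, Afp, Gpc3, Lpl and Elovl3 in CPM, each panel with its own linear axis from 0; points are single libraries and bars the strain mean and SD (n = 3). Lpl in A/J sits between 50 and 76.2 CPM with every other library at or below 22.2 CPM, while the Zhx2 libraries all fall between 5.81 and 12.1 CPM.

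Per kilobase of the longest protein-coding transcript, the genes can be compared with each other. In A/J the order of levels was Lpl at 15.1 CPM per kb, Elovl3 at 11.6, Zhx2 at 1.48, Afp at 0.487 and Gpc3 at 0.169. In CAST/EiJ it was Zhx2 at 2.65 CPM per kb and Elovl3 at 2.52, then Lpl at 0.551, Afp at 0.470 and Gpc3 at 0.0696. Afp and Gpc3 were thus the lowest of the 5 in both strains, and the deposited counts behind them were small, 7 to 52 per library for Afp and 0 to 22 for Gpc3.

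Among all 36 pairs of strains, Lpl passed the test in 20, Elovl3 in 18, Gpc3 in 11, Zhx2 in 7 and Afp in 3. Over all genes tested, 23.4% of gene-by-pair tests were called and the median gene was called in 8 pairs. The libraries of the pair of strains did not overlap in 24 pairs for Elovl3, 23 for Gpc3, 21 for Lpl and 12 each for Zhx2 and Afp, against 38.1% of gene-by-pair comparisons over all genes. Lpl and Elovl3 therefore lay above the median gene in called pairs, Zhx2 lay near it and Afp below it.

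**Figure D2:**
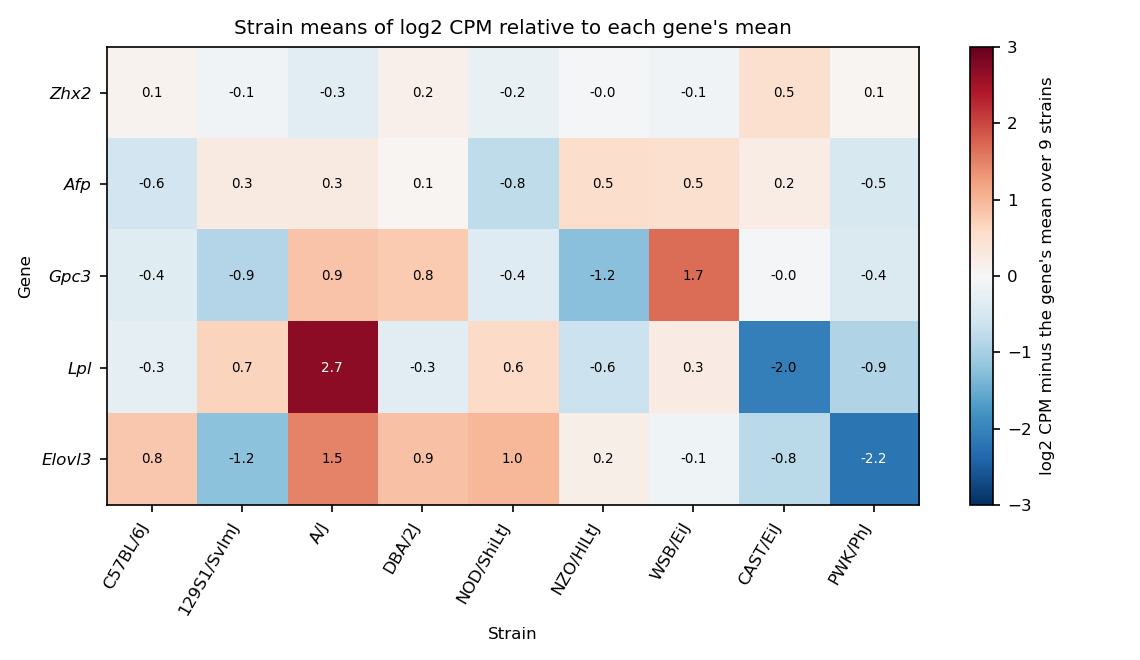
Strain means of log2 CPM for the 5 genes, each minus its own mean over the 9 strains (colour and printed value, log2 units). A/J is the highest strain for Lpl and Elovl3 and the lowest for Zhx2, and the highest strain is WSB/EiJ for Gpc3 and NZO/HlLtJ for Afp.

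Zhx2 was highest in CAST/EiJ, one of the wild-derived strains, with 11.9, 12.1 and 10.8 CPM in its 3 libraries. It was lowest in A/J, with 6.71, 6.97 and 5.81 CPM, and next lowest in NOD/ShiLtJ, with 6.69, 7.10 and 7.42 CPM. The CAST/EiJ libraries lay above all of those of A/J and NOD/ShiLtJ. C57BL/6J was the most spread strain, at 10.9, 9.61 and 6.65 CPM, so that its libraries reached from the CAST/EiJ level down to that of A/J.

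The other strains lay between, with overlapping libraries. DBA/2J held 7.64, 9.74 and 10.5 CPM of Zhx2 and PWK/PhJ held 9.02, 7.25 and 9.69 CPM. NZO/HlLtJ (8.05, 7.26 and 9.14 CPM), WSB/EiJ (6.91, 8.55 and 7.73 CPM) and 129S1/SvImJ (7.41, 7.24 and 8.54 CPM) came next. No pair of neighbours in the order of Zhx2 levels passed the test.

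Between the extremes, A/J expressed 0.56 times the Zhx2 of CAST/EiJ (log2 fold change -0.84 ± 0.17 SE, edgeR adjusted p = 0.000329). Zhx2 was higher in CAST/EiJ than in 6 of the 8 other strains, where 15.5% of gene-by-strain tests were called higher in CAST/EiJ, and not called against C57BL/6J or DBA/2J. The remaining call was DBA/2J over A/J (edgeR adjusted p = 0.048). That call was lost without any 1 of A/J replicates 1, 2 and 3 or DBA/2J replicates 3 and 4, where the edgeR adjusted p reached 0.212. The call of CAST/EiJ over PWK/PhJ was lost without any 1 of CAST/EiJ replicates 1, 4 and 5 or PWK/PhJ replicates 1 and 2, with edgeR adjusted p up to 0.199. Of the 7 calls, 4 held without each library in turn, those of CAST/EiJ over A/J, 129S1/SvImJ, NOD/ShiLtJ and WSB/EiJ, and the count fell to 4 without CAST/EiJ replicate 1 or 4 or NZO/HlLtJ replicate 1 or 2.

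With the mean Kupffer, endothelial and stellate marker levels as covariates, the strain effect on Zhx2 was no longer called (edgeR adjusted p = 0.0604), with a log2 difference between A/J and CAST/EiJ of -0.69 against -0.84 without them, and 1 pair was called, CAST/EiJ over NOD/ShiLtJ. The Kupffer sum was 62.4 to 75.6 CPM in the CAST/EiJ libraries and 143 to 306 CPM in those of A/J. Its part in the Zhx2 difference cannot be told apart from strain here.

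**Figure D3:**
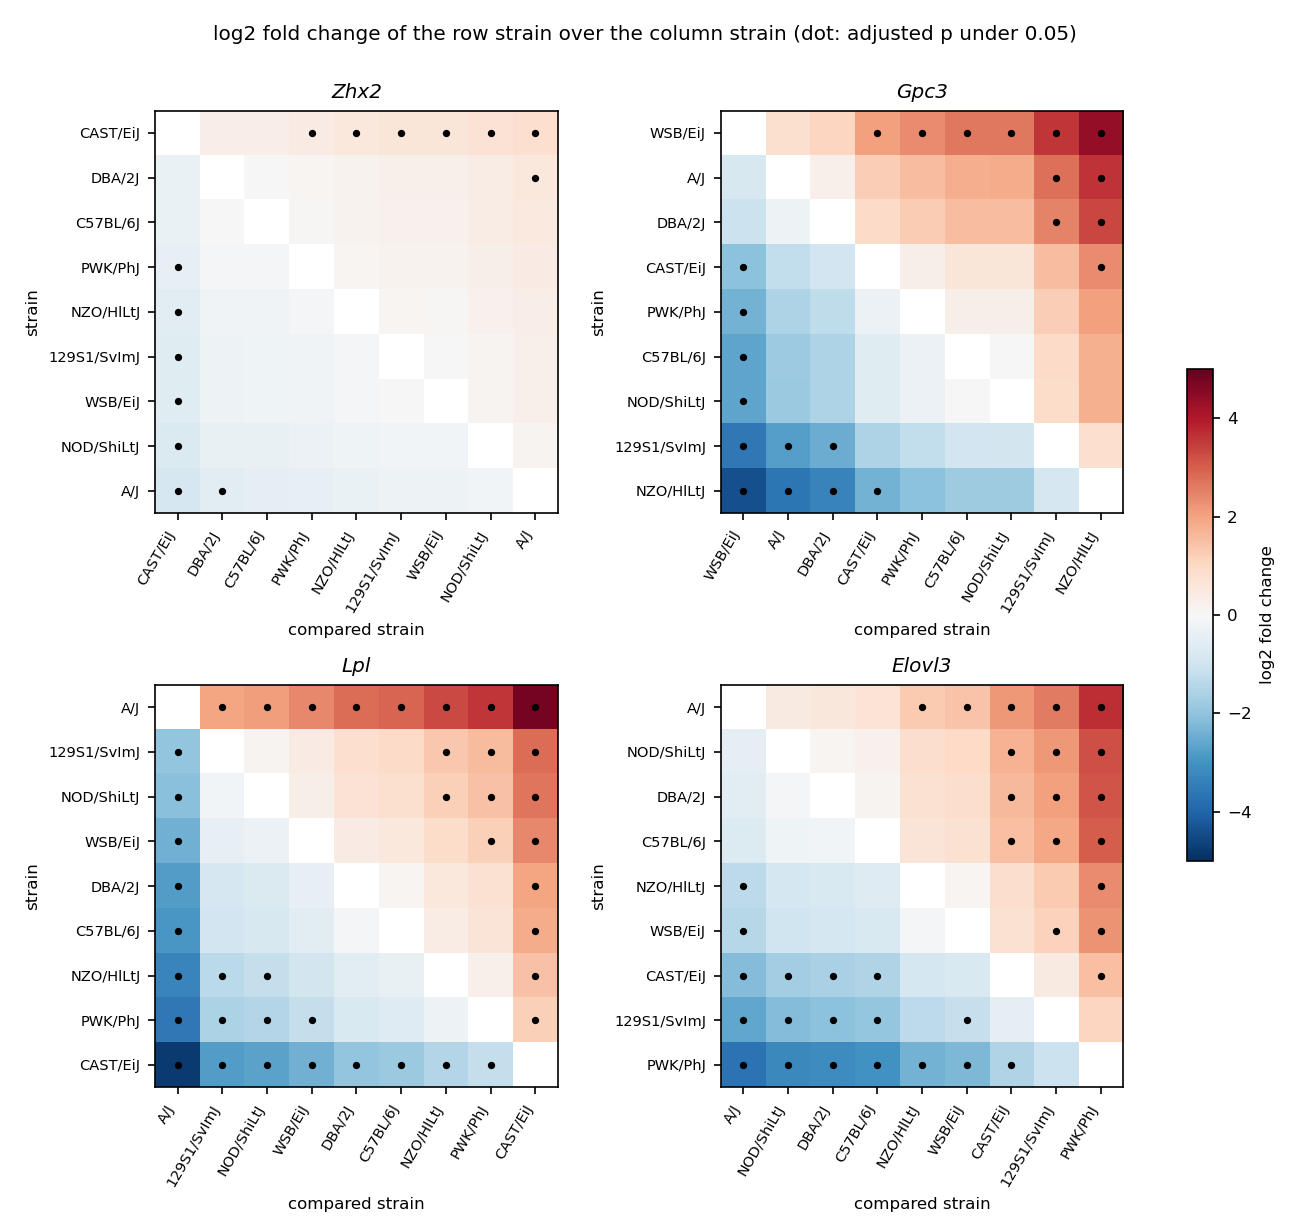
Log2 fold change of the row strain over the column strain for Zhx2, Gpc3, Lpl and Elovl3, strains ordered by mean level, with a dot where the adjusted p was under 0.05. The dots of Zhx2 lie in the CAST/EiJ row and column but for 1 pair, those of Lpl fill the A/J and CAST/EiJ rows, and the 7 for PWK/PhJ end the Elovl3 map.

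Among the Zhx2 paralogues and NF-Y subunits, log2 ranges of strain means ran from 0.34 for Nfyc to 1.34 for Nfyb, beside 0.83 for Zhx2. Of 5 genes in that list, 3 differed among strains against a background of 74.2%, with a median log2 range of 0.71. Zhx1, which forms dimers with its relatives and whose counts were not whole in 21 of 27 libraries, was also highest in CAST/EiJ at 32.8 ± 5.25 CPM (SD, n = 3) and lowest in C57BL/6J at 19.1 ± 5.00 CPM (edgeR adjusted p = 0.00642). It was lower in A/J than in CAST/EiJ by 0.75 ± 0.19 on the log2 scale (edgeR adjusted p = 0.00233). Zhx3 had the opposite end at CAST/EiJ, 40.5 ± 1.36 CPM, against 66.4 ± 7.50 CPM in PWK/PhJ, and just missed the threshold (edgeR adjusted p = 0.0501). With median-of-ratios scaling in place of TMM it passed (edgeR adjusted p = 0.0347). Nfyb, a histone-fold subunit of NF-Y, was highest in NZO/HlLtJ at 21.8 CPM and lowest in PWK/PhJ at 8.57 CPM. Nfya, the subunit that reads the CCAAT box, was highest in WSB/EiJ at 7.43 CPM and lowest in 129S1/SvImJ at 4.70 CPM.

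Afp, whose protein is the main serum protein of the fetus, stayed between 0.28 and 1.44 CPM in all 27 libraries. The 3 libraries of NZO/HlLtJ held 0.917, 1.32 and 1.44 CPM and those of WSB/EiJ held 1.31, 0.887 and 1.33 CPM. The lowest means were those of NOD/ShiLtJ, with 0.714, 0.346 and 0.383 CPM, and C57BL/6J, with 0.308, 0.616 and 0.757 CPM. NZO/HlLtJ and WSB/EiJ did not overlap with NOD/ShiLtJ or C57BL/6J.

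In the strains between, 129S1/SvImJ held 0.930, 1.06 and 1.04 CPM of Afp and A/J held 0.822, 1.12 and 1.07 CPM. CAST/EiJ (1.06, 0.967 and 0.876 CPM) and DBA/2J (0.760, 0.803 and 1.05 CPM) were alike in range. PWK/PhJ spread the most, from 0.280 CPM in replicate 1 to 0.962 CPM in replicate 2. A/J, the strain with the least Zhx2, thus lay in the middle of the Afp order.

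For Afp, 3 of 36 pairs were called in edgeR and 6 in DESeq2. The edgeR count was 6 without PWK/PhJ replicate 1, 5 without PWK/PhJ replicate 2 or NOD/ShiLtJ replicate 1, and 1 without NOD/ShiLtJ replicate 2 or 3 or NZO/HlLtJ replicate 2 or 3. NZO/HlLtJ was higher than NOD/ShiLtJ by 1.33 ± 0.39 on the log2 scale (edgeR adjusted p = 0.0288), and WSB/EiJ was higher than NOD/ShiLtJ by 1.27 ± 0.40 (edgeR adjusted p = 0.0237). NZO/HlLtJ was also higher than C57BL/6J, by 1.13 ± 0.39 (edgeR adjusted p = 0.0335). The strain effect itself (edgeR adjusted p = 0.0322) was lost without NOD/ShiLtJ replicate 2 or 3, NZO/HlLtJ replicate 2 or 3, or WSB/EiJ replicate 2 or 4, with adjusted p from 0.0516 to 0.0734, and each of the 3 pairs was lost without some library. It was also lost with no filter on low counts (adjusted p = 0.096) and with the marker covariates (adjusted p = 0.235).

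Alb, the neighbour of Afp that takes over in the adult, differed more widely between A/J and CAST/EiJ, which were not called apart for Afp. Its level was 226000, 196000 and 266000 CPM in A/J and 90900, 88500 and 80400 CPM in CAST/EiJ, higher in A/J by 1.41 ± 0.24 on the log2 scale (edgeR adjusted p = 5.31e-05). Gc, the vitamin D binding protein, was highest in WSB/EiJ at 11100 CPM and lowest in CAST/EiJ at 5510 CPM, and Afm (afamin) was highest in DBA/2J at 763 CPM and lowest in NZO/HlLtJ at 453 CPM. All 3 differed among strains, where 74.2% of all genes did.

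Of 14 genes known to act on Afp transcription, 7 differed among strains, a share below the 74.2% of all genes, with a median log2 range of 0.72. Zbtb20, the other repressor that silences Afp after birth, was not called (edgeR adjusted p = 0.54), with strain means of 53.8 to 70.0 CPM. Nr2f2, a nuclear receptor that can repress, ran from 8.85 CPM in NZO/HlLtJ to 19.7 CPM in PWK/PhJ. Cebpb, an activator also induced by inflammation, ran from 8.71 CPM in DBA/2J to 45.3 ± 41.6 CPM in 129S1/SvImJ, where the spread was nearly as large as the mean, and its counts were not whole in any library.

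Gpc3 encodes a heparan sulfate proteoglycan of the cell surface that is abundant in fetal liver and returns in hepatocellular carcinoma. WSB/EiJ was highest, with 13, 22 and 12 deposited counts or 0.548, 0.887 and 0.552 CPM. A/J held 12, 3 and 11 counts (0.548, 0.140 and 0.435 CPM) and DBA/2J held 7, 7 and 9 counts (0.296, 0.352 and 0.287 CPM). These 3 strains carried most of the signal, and A/J replicate 2 fell to the level of the low strains.

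At the other end, NZO/HlLtJ held 2, 1 and 0 counts of Gpc3 and 129S1/SvImJ held 2, 1 and 2. C57BL/6J had 3, 3 and 2 counts, NOD/ShiLtJ 3, 2 and 4, CAST/EiJ 4, 8 and 2, and PWK/PhJ 0, 4 and 7. Most of those libraries are at or under the level that 3 counts represent. Gpc3 entered the test through 4 libraries in 2 strains, WSB/EiJ and A/J, that reached the filter, which is 0.353 CPM on library sizes before TMM scaling, so that a difference between strains was a condition of its entry.

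Summed over 3 libraries, WSB/EiJ held 47 counts and NZO/HlLtJ 3, a depth-adjusted ratio of 24.5 with a 95% counting interval of 7.89 to 123 (edgeR adjusted p = 0.000177). Gpc3 was higher in WSB/EiJ than in 6 of the 8 other strains, where 12.6% of gene-by-strain tests were called higher in WSB/EiJ, and nothing is read from that comparison because WSB/EiJ carried Gpc3 through the filter. Against A/J and DBA/2J the WSB/EiJ level was not called, though the DBA/2J libraries did not overlap with those of WSB/EiJ. NZO/HlLtJ was lower than 4 strains, A/J, CAST/EiJ, DBA/2J and WSB/EiJ, beside 12.9% of gene-by-strain tests called lower in NZO/HlLtJ, with the same limit. Of the 11 calls, 5 held without each library in turn, and 7 pairs were called without WSB/EiJ replicate 3. That library ended the calls of WSB/EiJ over C57BL/6J (edgeR adjusted p = 0.0595), CAST/EiJ (0.0873) and PWK/PhJ (0.0522). CAST/EiJ over NZO/HlLtJ was lost without CAST/EiJ replicate 1 or 4 or NZO/HlLtJ replicate 2 or 3, where it reached 0.194. With the marker covariates 1 pair was called, CAST/EiJ over NZO/HlLtJ, and none of the calls of WSB/EiJ. The log2 difference of NZO/HlLtJ from WSB/EiJ was then -3.29 (edgeR adjusted p = 0.0826), and those of CAST/EiJ and PWK/PhJ from WSB/EiJ were -0.11 and -0.26, against -2.04 and -2.35 without covariates. In fits restricted to a pair's own 6 libraries, 6 pairs were called, those of WSB/EiJ, and the other 5 were not tested because Gpc3 did not pass the filter without that strain. Those 6 calls therefore add no support. From NZO/HlLtJ to WSB/EiJ, 4 of 10 endothelial and 4 of 11 stellate markers were called higher in WSB/EiJ, 1 endothelial marker was called lower, and 0 of 11 Kupffer markers were called, beside 33.5% of all genes called in either direction between these strains. The part of these cells in the Gpc3 difference was not tested beyond the covariate fit.

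Among the other glypicans, Gpc4 was lowest in NZO/HlLtJ at 46.5 ± 4.55 CPM and highest in WSB/EiJ at 75.3 ± 10.9 CPM (edgeR adjusted p = 0.000846). Its highest and lowest strains were the same as those of Gpc3, but by small margins. The A/J libraries, at 66.7, 65.3 and 88.8 CPM of Gpc4, overlapped with those of WSB/EiJ. Those of PWK/PhJ, at 56.3, 45.4 and 39.8 CPM, overlapped with those of NZO/HlLtJ. Gpc1 had another order, from 0.396 CPM in WSB/EiJ to 4.24 CPM in PWK/PhJ. Gpc2 was highest in NOD/ShiLtJ at 0.462 CPM and was at 0 counts in all CAST/EiJ libraries. Gpc2, whose strain mean was above the filter's 0.353 CPM in NOD/ShiLtJ only, passed the filter through its high libraries, so no count of called glypicans is drawn. Gpc6, also low, was highest in PWK/PhJ at 0.803 ± 0.488 CPM and lowest in 129S1/SvImJ at 0.0625 CPM, and Gpc5 was at 0 throughout.

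H19, a fetal noncoding RNA and another reported Zhx2 target, resembled Gpc3 in its top strain. WSB/EiJ held 27, 16 and 17 counts (1.14, 0.645 and 0.783 CPM) and DBA/2J held 3, 16 and 27 counts (0.127, 0.803 and 0.861 CPM). No other library went above 8 counts. Like Gpc3 it passed the filter through few libraries, 5 in 2 strains, so its values stand as a description.

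Of 20 other genes of the fetal liver, 13 were too low to be tested, and the embryonic globins Hbb-bh1 and Hbb-y and the RNA-binding Lin28b were at 0 in all 27 libraries. Igf2, the fetal growth factor next to H19, summed to 70 counts in all, with 17 of them in WSB/EiJ replicate 2. The other 7 were tested, and no count of calls is drawn because low genes among them, such as Plagl1 with a mean of 0.236 CPM, pass the filter only through libraries where they are high. Grb10, an imprinted growth inhibitor, was highest in 129S1/SvImJ at 8.82 ± 0.807 CPM and lowest in C57BL/6J at 0.848 CPM (edgeR adjusted p = 1.35e-11). Igf2bp2, an RNA-binding protein, was highest in CAST/EiJ at 5.67 ± 0.851 CPM and lowest in NOD/ShiLtJ at 0.239 CPM. Peg3, an imprinted zinc-finger gene, was lowest in NZO/HlLtJ at 3.51 CPM and was uneven in 129S1/SvImJ, the strain with the highest mean, at 46.8, 20.5 and 12.1 CPM. Its highest mean rests on replicate 1 of that strain, since the other libraries of 129S1/SvImJ lie within or below the 18.3, 18.4 and 28.9 CPM of A/J. Grb10 and Igf2bp2 had other highest strains than Afp, Gpc3 and Lpl.

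Lpl encodes lipoprotein lipase, which releases fatty acids from triglyceride-rich lipoproteins in fat and muscle and is normally scarce in adult hepatocytes. A/J held 76.2, 60 and 50 CPM of Lpl in its 3 libraries. The next strains were 129S1/SvImJ, with 10.6, 22.2 and 14.2 CPM, and NOD/ShiLtJ, with 11.5, 13.5 and 18.3 CPM. No library of another strain reached any of A/J.

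At the low end, CAST/EiJ held 2.48, 1.69 and 2.63 CPM of Lpl, below every other library. PWK/PhJ held 7.03, 4.05 and 4.48 CPM, and NZO/HlLtJ 8.26, 5.62 and 4.78 CPM. WSB/EiJ (9.44, 8.87 and 17 CPM), DBA/2J (3.55, 8.13 and 14.7 CPM) and C57BL/6J (7.25, 11.9 and 5.38 CPM) overlapped one another. DBA/2J had the widest relative spread, and no pair of neighbours between 129S1/SvImJ and PWK/PhJ in the order of Lpl levels was called.

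A/J exceeded CAST/EiJ in Lpl 27.4-fold by the ratio of means (log2 fold change 4.79 ± 0.45 SE, edgeR adjusted p = 9.62e-09). Against C57BL/6J the ratio was 7.59 (log2 2.92 ± 0.40, edgeR adjusted p = 1.19e-05) and against 129S1/SvImJ, the next strain, the log2 difference was 1.98 ± 0.38 (edgeR adjusted p = 0.000594). Lpl was called higher in A/J than in each of the 8 other strains, where 12.1% of gene-by-strain tests were called higher in A/J. In all, 19 of 14482 genes, or 0.131%, were called higher in A/J than in every other strain. Lpl was also lower in CAST/EiJ than in all 8 others, where 17.3% of gene-by-strain tests were called lower in CAST/EiJ and 406 genes, or 2.80%, against every other strain.

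Leaving out each library in turn ended none of the 8 Lpl calls of A/J, and neither did any other alternative tried. Of the 20 called Lpl pairs, 15 held without each library, and the 5 others involved NZO/HlLtJ or PWK/PhJ. CAST/EiJ against PWK/PhJ (edgeR adjusted p = 0.0313) was lost without CAST/EiJ replicate 1 or 4 or PWK/PhJ replicate 1, where it reached 0.154. CAST/EiJ against NZO/HlLtJ was lost without CAST/EiJ replicate 4 (adjusted p = 0.0614) or NZO/HlLtJ replicate 1 (adjusted p = 0.061).

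Macrophages and adipocytes also make Lpl. All 11 Kupffer markers were called higher in A/J than in CAST/EiJ and than in 129S1/SvImJ, 9 of 11 than in NZO/HlLtJ, and 0 of 11 than in C57BL/6J. Of all genes, 42.4%, 28.6%, 36.1% and 7.84% were called in either direction in those pairs, in that order. The counts were 4 of 11 against NOD/ShiLtJ, 2 each against PWK/PhJ and WSB/EiJ, and 1 against DBA/2J, beside 19.4%, 32.9%, 14.5% and 10.9% of all genes called in either direction in those pairs. The part of macrophages in the Lpl levels was not tested beyond the covariate fit. With the Kupffer, endothelial and stellate levels as covariates, the A/J to CAST/EiJ difference of Lpl was 5.60 on the log2 scale (edgeR adjusted p = 0.000131) and that to C57BL/6J 3.28 (edgeR adjusted p = 0.0033), and 17 of 20 Lpl pairs were called. The 5 adipocyte genes summed to 0.228 to 0.395 CPM in A/J, within the 0.138 to 1.44 CPM of all libraries, and Lep was at 0 in every library.

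All 16 tested genes of the lipoprotein lipase system differed among strains (74.2% of all genes did), with a median log2 range of 1.35 against 4.73 for Lpl. Between A/J and CAST/EiJ, 5 were called higher in A/J and 1 lower, beside 21.8% and 20.6% of all genes tested. Apoa5, an activator of the lipase, was among those higher, by 1.60 ± 0.23 on the log2 scale (edgeR adjusted p = 6.2e-06), and Lipc, hepatic lipase, by 0.61 ± 0.19 (edgeR adjusted p = 0.0138). Apoc2, the cofactor Lpl requires, was the gene lower in A/J, by 0.86 ± 0.21 (edgeR adjusted p = 0.00217), though its counts were not whole in any library.

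Other genes of that system had other extreme strains. Cd36, a fatty acid transporter, was 6.46, 7.90 and 6.48 CPM in NOD/ShiLtJ, against a lowest value of 46.3 CPM in any other strain. Vldlr, a receptor for remnants of lipoproteins, was highest in 129S1/SvImJ at 21.6 ± 9.11 CPM and lowest in PWK/PhJ at 1.22 ± 0.403 CPM. Gpihbp1, which anchors Lpl to capillaries and is made by endothelium, was highest in PWK/PhJ at 20.7 ± 12.0 CPM, the strain with the highest endothelial sum. Neither of the inhibitors Angptl4 and Angptl8 was called between A/J and CAST/EiJ.

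**Figure D4:**
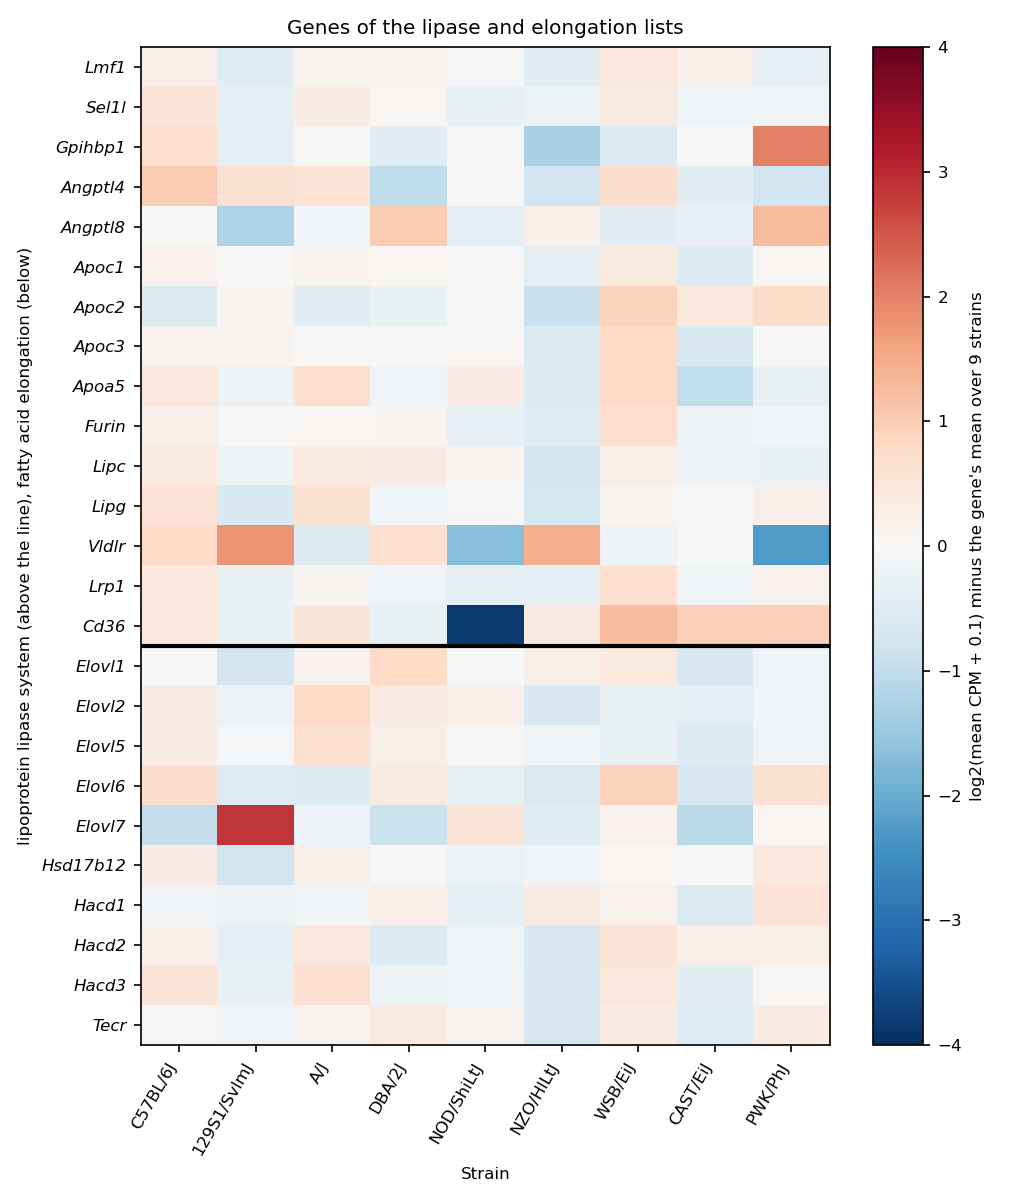
Strain means of the genes of the lipoprotein lipase system (above the line) and of fatty acid elongation (below), as log2(mean CPM + 0.1) minus each gene's mean over the 9 strains, without 1 gene of the lipase list. The darkest cells are Cd36 in NOD/ShiLtJ at -3.82 and Elovl7 in 129S1/SvImJ at 2.87, and Elovl2, Elovl5 and Hacd3 have their highest value in A/J.

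Elovl3 encodes an elongase of saturated and monounsaturated very long chain fatty acids that in mouse liver is higher in males and follows the day. A/J was highest, with 20.9, 19.7 and 24.6 CPM, and PWK/PhJ lowest, with 2.20, 1.72 and 1.16 CPM. NOD/ShiLtJ held 11.3, 22.6 and 14 CPM, DBA/2J 20.2, 13.9 and 10.3 CPM and C57BL/6J 13.0, 13.1 and 14.7 CPM. A/J overlapped with NOD/ShiLtJ and DBA/2J and lay above C57BL/6J.

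The middle strains were NZO/HlLtJ, at 7.01, 9.21 and 9.98 CPM of Elovl3, and WSB/EiJ, at 10.4, 10.8 and 2.95 CPM. CAST/EiJ held 7.54, 3.78 and 2.89 CPM and 129S1/SvImJ 5.99, 1.92 and 2.84 CPM. WSB/EiJ replicate 4 stood well under the other libraries of its strain, at the level of 129S1/SvImJ. The same library stood above the others of its strain for some clock genes, as given with those genes. No neighbours in the order of Elovl3 levels were called.

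Elovl3 was 12.8-fold higher in A/J than in PWK/PhJ (log2 3.69 ± 0.46 SE, edgeR adjusted p = 1.07e-06). PWK/PhJ was lower than 7 of the 8 other strains, all but 129S1/SvImJ, where 15.1% of gene-by-strain tests were called lower in PWK/PhJ. 129S1/SvImJ was lower than 5 strains, against 10.9% of gene-by-strain tests called lower in 129S1/SvImJ, and A/J was higher than 5 strains (12.1% of gene-by-strain tests). Of the 18 calls, 14 held without each library in turn. A/J over WSB/EiJ was lost without A/J replicate 3 (edgeR adjusted p = 0.0571) or WSB/EiJ replicate 4 (0.106), and CAST/EiJ over PWK/PhJ without CAST/EiJ replicate 1 (0.128) or PWK/PhJ replicate 3 (0.0539). A/J over NZO/HlLtJ was lost without A/J replicate 3 (0.0557) or NZO/HlLtJ replicate 1 (0.0633), and WSB/EiJ over 129S1/SvImJ without WSB/EiJ replicate 2 or 3 or 129S1/SvImJ replicate 2 or 3, where it reached 0.186. With the marker covariates 9 pairs were called, 6 of them with PWK/PhJ. Among the calls lost there, the log2 difference of A/J over CAST/EiJ was 2.10 with covariates and 2.18 without, and that of 129S1/SvImJ from A/J was -2.45 and -2.60.

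The other genes of fatty acid elongation shared the A/J to CAST/EiJ contrast in part. The median log2 range of the 10 tested genes was 1.22. Elovl7, at 1.92 CPM in 129S1/SvImJ and a mean of 0.331 CPM over all libraries, passed the filter through its high libraries. No count of elongation genes differing among strains is therefore drawn. Between A/J and CAST/EiJ, 6 of 10 were called higher in A/J and 0 lower, beside 21.8% and 20.6% of all genes, with a median log2 difference of 0.71 against 0.02 over all genes. Elovl2, which elongates polyunsaturated fatty acids, was 1060, 999 and 1040 CPM in A/J, above every other library, and lowest in NZO/HlLtJ at 387 ± 18.0 CPM. Elovl5, which acts on shorter polyunsaturated substrates, was higher in A/J than in CAST/EiJ by 1.17 ± 0.22 on the log2 scale (edgeR adjusted p = 0.000178). The dehydratase Hacd3 was higher by 1.09 ± 0.16 (edgeR adjusted p = 5.95e-06), and its relative Hacd2 was highest in WSB/EiJ at 90.0 CPM and lowest in NZO/HlLtJ at 40.1 CPM. Between A/J and PWK/PhJ, the extremes of Elovl3, 3 of the 10 were called higher and 2 lower, beside 32.9% of all genes called in either direction, with a median of 0.00.

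Whether strains with less Zhx2 had more of the other genes was asked over the 9 strain means of log2 CPM. For Lpl, Pearson's r was -0.90 (exact two-sided permutation p = 0.00252, adjusted over 4 relations 0.0101) and Spearman's rho was -0.82 (exact permutation p = 0.0108, adjusted 0.0432). A/J, lowest for Zhx2, was highest for Lpl, and CAST/EiJ, highest for Zhx2, was lowest for Lpl. Without these 2 strains, the farthest from the median of Zhx2, r was -0.72. Of 14481 other genes tested, 6, or 0.0414%, had an r with Zhx2 at or below that of Lpl. The genes were chosen with earlier results of these data known, which the p-values do not take into account.

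The relation was one between strains. Over all 27 libraries r was -0.61, and for the deviations of libraries from their strain mean it was 0.42, of the opposite sign. Within the 6 strains that are not wild-derived it was -0.86, with an adjusted permutation p of 0.0667, and on CPM with no log it was -0.64 (adjusted permutation p = 0.42). Leaving out each library gave values from -0.92 to -0.81, all with adjusted permutation p at or below 0.0366.

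**Figure D5:**
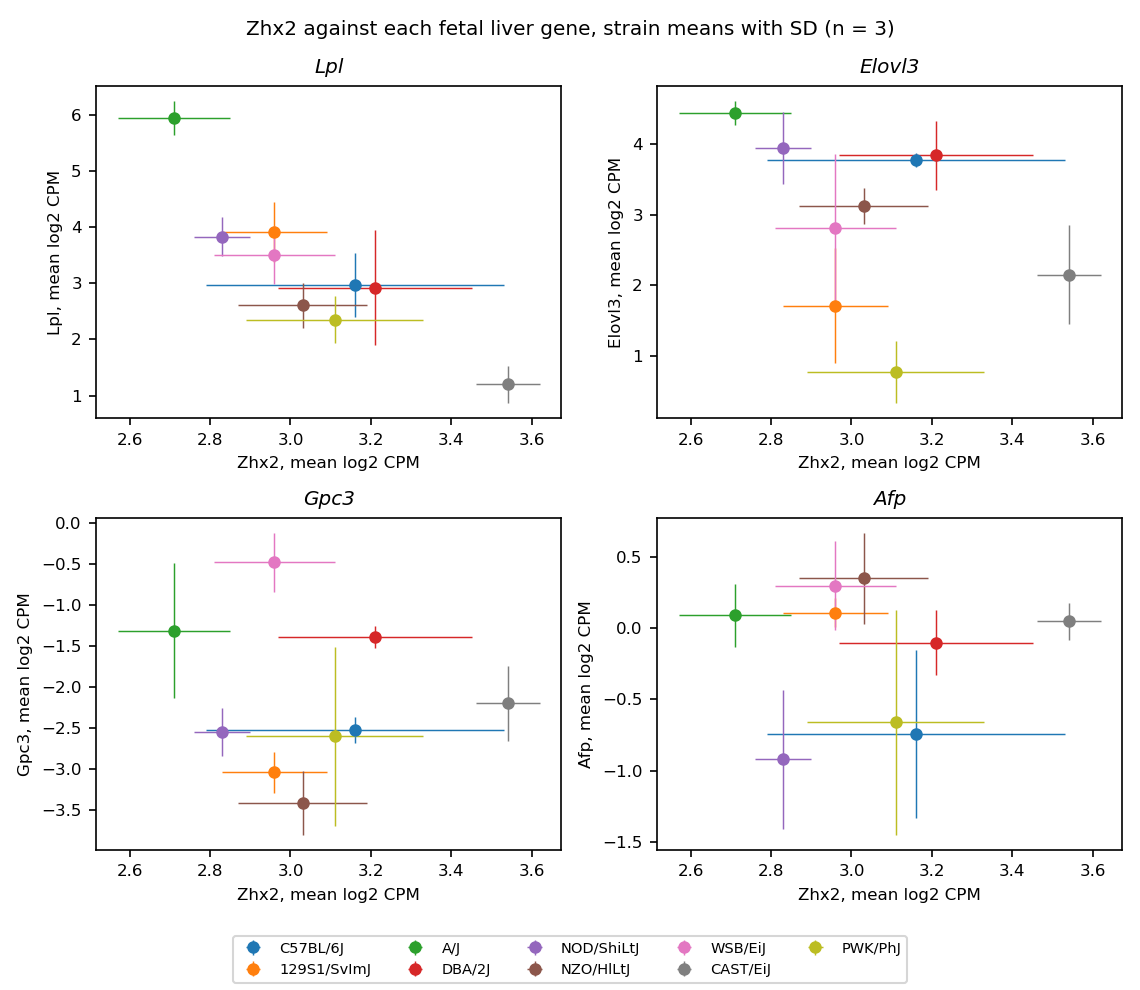
Mean log2 CPM of Lpl, Elovl3, Gpc3 and Afp against that of Zhx2 for the 9 strains, with SD of the 3 libraries on both axes. Lpl falls from A/J at upper left to CAST/EiJ at lower right (r = -0.90), and the other panels have no such slope (r from -0.39 to 0.02).

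For the other 3 genes no relation to Zhx2 was detected with 9 strains. For Elovl3 r was -0.39 and rho -0.40 (exact permutation p = 0.308 and 0.291, adjusted 0.616 and 0.582), and r was 0.00 without A/J and CAST/EiJ. For Gpc3 r was -0.12 and rho -0.10 (exact permutation p = 0.752 and 0.81, adjusted 0.954 and 0.81), and r was 0.10 without those strains. For Afp r was 0.02 and rho -0.18 (exact permutation p = 0.954 and 0.644, adjusted 0.954 and 0.81), and r was -0.01 without them. For the deviations of libraries from their strain mean, r with Zhx2 was -0.15 for Elovl3, 0.05 for Gpc3 and -0.41 for Afp, with no test run. Among the 4 genes other than Zhx2, the highest r over the strain means was 0.53, between Lpl and Elovl3 (rho 0.50), which share A/J as their top strain. Gpc3 had an r of 0.32 with Elovl3 and 0.31 with Lpl, and Afp had 0.25 with Gpc3, 0.07 with Lpl and -0.04 with Elovl3.

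The genes most like each of the 5 were taken by Pearson's r of log2 CPM over the 27 libraries, among 10538 genes averaging at least 1 CPM, as a description. Zhx2 was closest to Slc9a3r1 (0.786), a scaffold protein of the apical membrane, Atox1 (0.761), a copper chaperone, and Stat3 (0.726), a transcription factor of the acute phase. All 3 were highest in CAST/EiJ, as Zhx2 was. Lpl was closest to Ercc6l2 (0.787), Prom2 (0.773) and Sumf1 (0.759). Prom2, a membrane glycoprotein, was 39.7, 63.6 and 56.6 CPM in A/J, 17.8 to 20.2 CPM in 129S1/SvImJ and 0.0465 CPM on average in PWK/PhJ, so its order began with the same pair of strains as that of Lpl.

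For Elovl3 the closest were Kcnk10 (0.865), a potassium channel, Tspan33 (0.862), a tetraspanin, and Spon2 (0.846), a matrix protein. Kcnk10 was 2.06, 2.43 and 3.71 CPM in A/J and at 0 in all libraries of CAST/EiJ and PWK/PhJ. Gpc3 was closest to Golga3 (0.769), a Golgi protein, Ace (0.754), the angiotensin-converting enzyme, and Ebpl (0.735). Ace was 5.90, 11.9 and 8.42 CPM in WSB/EiJ, with no other library above 1.91 CPM. Afp was closest to Ermard (0.705), Dnph1 (0.692) and Chd1 (0.689), a chromatin remodeller, and these values were the lowest top values of the 5.

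The remaining reported Zhx2 targets differ between the sexes and belong to families of near-identical copies. Of that list, the 5 genes other than H19 differed among strains (74.2% of all genes did). Mup3, a major urinary protein, was highest in C57BL/6J at 2200 ± 676 CPM and lowest in PWK/PhJ at 18.0 ± 0.907 CPM, and Mup20 was highest in PWK/PhJ at 118 ± 90.6 CPM and lowest in CAST/EiJ at 0.0998 CPM. Cyp2a4, a female-biased steroid hydroxylase, was highest in PWK/PhJ at 3500 ± 656 CPM and lowest in NOD/ShiLtJ at 411 ± 126 CPM. Fractional estimates stood in all 27 libraries for Mup3 and Cyp2a4 and in 12 for Mup20, so the level of a single copy is uncertain. The relation of these 3 genes to Zhx2 was not tested.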

How the data were processed

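RNA-seq was analysed in 27 libraries of hepatocytes from 9 strains. The authors deposited a table of expected counts (estimated counts, not scaled to depth) per Ensembl gene. FastQC 0.11.5, DESeq2 and the builds GRCm38 and mm10 are named in the submitters' processing notes. The aligner, the counter and whether reads were aligned to each strain's own genome are not given in the sources used here. Library preparation selected polyadenylated RNA, per the labels' protocols.

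The expected counts were rounded before the test. Software was R 4.3.3, limma 3.58.1 and edgeR 4.0.16. The fit used filterByExpr with strain as group (at least 0.353 CPM, before TMM scaling, in 3 libraries), TMM factors of 0.722 to 1.23, and glmQLFit and glmQLFTest on all 27 libraries with strain as the factor. The same fit gave the strain effect and the 36 pairs, adjusted by Benjamini-Hochberg over 14482 genes. CPM was computed from TMM-adjusted library sizes, and log2 CPM with a prior count of 2. Standard errors were taken from the F statistic. Fits were tested on simulated data. Relations over strain means used exact permutation tests.

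The genes named were the 5, with Zhx1, Zhx3, Alb, H19 and Igf2, up to 3 genes of smallest p in each list, and the 3 most alike by correlation, passing over predicted genes and pseudogenes; other list genes were chosen after their values were seen. Some genes of the lists are not reported here. The members and lists were chosen with earlier results of these data known. Alternatives were DESeq2 1.42.0, median-of-ratios size factors, other filters, no rounding, the replicate number as a block, marker levels as covariates, fits on the 6 libraries of a pair, other scales, and leaving out each library. No 2 libraries of a strain agreed within sampling noise (chi-square per degree of freedom 24.4 to 135).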

Additional observations from a re-analysis of the deposited data

How the results depend on the processing

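With no filter on low counts, the strain effect on Afp, as the fitted log2 difference between the extreme strains, was 1.35 with an edgeR adjusted p of 0.096, and 4 pairs were called for Zhx2 and 0 for Afp. With the replicate block, the Afp effect was 1.28 (adjusted p = 0.0555) and 1 Afp pair was called. The numbers did not pair the libraries: libraries with the same number had a mean correlation of deviations of 0.019 (-0.206 to 0.204, 14 of 76 pairs over 0.1), and 8 of 27 correlated best with their own number. With Kupffer, endothelial and stellate levels as covariates, the Zhx2 effect was 0.69 (adjusted p = 0.0604) and the Afp effect 1.17 (adjusted p = 0.235), and the called pairs were 1 for Zhx2, 0 for Afp, 1 for Gpc3 and 9 for Elovl3. DESeq2 called 6 Afp pairs. Fits on the 6 libraries of each pair called 6 Gpc3 pairs, those with WSB/EiJ, and the other 5 were not tested because Gpc3 did not pass the filter. The relation of Zhx2 to Afp was -0.02 on CPM with no log and -0.05 without the wild-derived strains, and that to Lpl -0.64 (adjusted permutation p = 0.42) and -0.86 (adjusted permutation p = 0.0667). Apart from fewer samples, strains or pairs tested, the cause was not tested. The strain effects on Gpc3, Lpl and Elovl3 and the pair count of Lpl kept their side of the threshold, or stayed within 1.5 times, under every alternative that tested them. For Gpc3 a difference between strains was a condition of passing filterByExpr, so its calls in fits with that filter add no support. With no filter on low counts, the edgeR adjusted p of Gpc3 was 0.000584. The filter on a mean of at least 10 counts left Gpc3 and H19 untested.

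Leaving out each library, the effect ranged from 0.77 to 0.89 for Zhx2, 1.16 to 1.73 for Afp, 3.97 to 5.18 for Gpc3, 4.60 to 4.91 for Lpl and 3.48 to 3.91 for Elovl3. Called pairs ranged from 4 to 10 for Zhx2, 1 to 6 for Afp, 7 to 13 for Gpc3, 18 to 24 for Lpl and 17 to 20 for Elovl3. The relation to Zhx2 ranged from -0.15 to 0.12 for Afp, -0.49 to -0.30 for Elovl3, -0.23 to -0.05 for Gpc3 and -0.92 to -0.81 for Lpl. Among single called pairs under the other alternatives, 399 values were still called and 57 were not. Depth limits genes such as Gpc3, H19, Gpc2 and Igf2, for which most libraries hold few counts.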

Other observations

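Of 13 clock genes, with which Elovl3 is known to cycle, 11 differed among strains in edgeR, near the 74.2% of all genes. Their median log2 range was 2.61, beside 1.16 over all genes. Per2 was highest in CAST/EiJ at 13.2 CPM and lowest in PWK/PhJ at 0.899 CPM, and Nr1d1, whose counts were not whole in any library, highest in CAST/EiJ at 71.8 CPM and lowest in NZO/HlLtJ at 10.9 CPM. Bhlhe41 was highest in WSB/EiJ at 2.00 CPM and lowest in NZO/HlLtJ, where its mean of 0.00849 CPM is below what 1 count is worth. Libraries of 1 strain could differ widely: Dbp, another gene of the list, was 1.32, 50 and 3.99 CPM in A/J. WSB/EiJ replicate 4, at 2.95 CPM of Elovl3, held 48.6 CPM of Dbp, against 3.33 and 3.55 CPM in replicates 2 and 3. Its Nr1d1 was 102 CPM, against 36.8 and 39.8 CPM there, and above every library of CAST/EiJ. Its Per2, at 10.9 CPM, lay between their 12.6 and 6.82 CPM. The hour at which livers were taken is not labelled, and its part in these levels was not tested. Over the 9 strain means, the r of Elovl3 with the 13 genes ran from -0.77 (Cry2) to 0.55 (Per2), and over deviations of the 27 libraries from their strain means from -0.49 (Cry2) to 0.19 (Arntl), as descriptions.

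Of 7 regulators of sex-biased liver genes, 6 differed among strains in edgeR, near the 74.2% of all genes. Ghr, the growth hormone receptor, had the opposite ends to Zhx2, 521 ± 73.0 CPM in A/J and 277 ± 44.5 CPM in CAST/EiJ (SD, 3 libraries each). Stat5a was highest in C57BL/6J at 16.2 CPM and lowest in PWK/PhJ at 8.13 CPM, with counts that were not whole in any library. These values were picked out after they were seen and no test of their relation to Zhx2 was run.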
